A study of Mus musculus with 28 samples.

Results

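The comparison described here is the amyloid effect in microglia of mice that carry an astrocyte Cre: 4 libraries from APPPS1 mice (mice 443, 458, 460 and 475) against 2 libraries from mice without the APPPS1 transgenes (mice 22 and 26), 6 of the 28 libraries of the series. The libraries were chosen by genotype and cell type as labelled. The APPPS1 group was labelled APPPS1::APOE4fl/fl::ALDH1L1-CreERT and the amyloid-free group APOE4fl/fl::ALDH1L1-CreERT. Both groups therefore carried human APOE4 knocked in at both alleles with flanking loxP sites, and the ALDH1L1-CreERT transgene of both makes a recombinase that tamoxifen switches on, from a promoter used by astrocytes and not by microglia. At the age of 3.8 months all mice were given tamoxifen, 2 intraperitoneal doses of 100 mg/kg, and 10 days later cells were sorted from cortex, hippocampus and thalamus with an antibody against Cd11b, a surface protein of microglia and of other myeloid cells. Each mouse gave 1 microglia library. The comparison answers which genes differ with amyloid when the astrocytes of every mouse have been exposed to the recombinase, so the Cre and the tamoxifen are shared by both groups. How much APOE4 was removed from astrocytes was not measured here. APPPS1 mice express mutant human transgenes, APP among them, in neurons, and amyloid deposits form early in the cortex.

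Microglia that surround amyloid deposits shift from a homeostatic state, marked by genes such as P2ry12 and Tmem119, to a state often called disease-associated microglia. An early step of that shift includes Trem2, Tyrobp, Apoe and Ctsb, and a late step, which depends on the lipid-sensing receptor TREM2, includes Cst7, Lpl, Itgax, Clec7a, Spp1 and Gpnmb. Lysosomal enzymes, lipid handling and proliferation are known to move with the same shift. Microglia can take up APOE that astrocytes secrete, and they make APOE of their own once activated.

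Levels are library-size-normalised counts of mouse genes (CPM) after TMM scaling, which adjusts for differences in composition between libraries. They are given in the order of mice 443, 458, 460 and 475 and then of mice 22 and 26. Levels in the astrocyte sorts are CPM without TMM scaling. Fold changes are log2 ratios of APPPS1 over amyloid-free microglia with their standard error, and a gene is called when its edgeR quasi-likelihood p, adjusted by Benjamini-Hochberg over 17593 tested genes, is under 0.05. Rose and fell are written of called genes. The fit used 13 microglia libraries in 4 genotype groups, so the spread was estimated over more mice than the 6 compared. The p-values measure the spread between these mice.

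Total counts ran from 26162612 to 57950591 in the 6 libraries, and the lowest depth was that of mouse 26. Libraries stood apart in what other cells they held, and this precedes every result below. The summed level of 15 microglia identity genes was 45976, 43874, 43139 and 41732 CPM in the APPPS1 libraries and 37380.4 and 19246 CPM in mice 22 and 26, so mouse 26 had the lowest microglial signal. Of 18 astrocyte identity genes, the glutamate transporter Slc1a3, which these microglia also contained, supplied the largest share of the sum (215, 158, 155 and 178 CPM against 239.8 and 142 CPM). The other 17 summed to 24.6, 20, 14.5 and 18.1 CPM against 169 and 144 CPM. Both amyloid-free libraries were thus above all 4 APPPS1 libraries in astrocyte transcripts. The 16 markers of monocytes and neutrophils summed to 1871, 2379.6, 1965 and 894 CPM against 3787 and 8035 CPM, the highest again in mouse 26. The 4 adult globin genes, which mark red blood cells, summed to 0.0538, 10.8, 0 and 6.55 CPM against 134 and 559.6 CPM. Of 18 endothelial markers, 17 without the widely expressed Bsg summed to 241, 153, 123 and 169 CPM against 244 and 509 CPM. Ependymal and choroid plexus markers summed to 51.5, 13.9, 16.6 and 2.14 CPM against 54.6 and 276 CPM. Mitochondrially encoded genes took between 1.14% and 1.52% of the mouse counts in the APPPS1 libraries, 1.57% in mouse 22 and 3.18% in mouse 26. A further APPPS1 mouse of this genotype, 459, was left out because its sorts looked exchanged: the library labelled microglia had 15.9 CPM of P2ry12 and 6980 CPM of the astrocyte gap junction gene Gja1. In bulk libraries such as these, fewer cells of a type and less RNA per cell cannot be told apart.

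**Figure D1:**
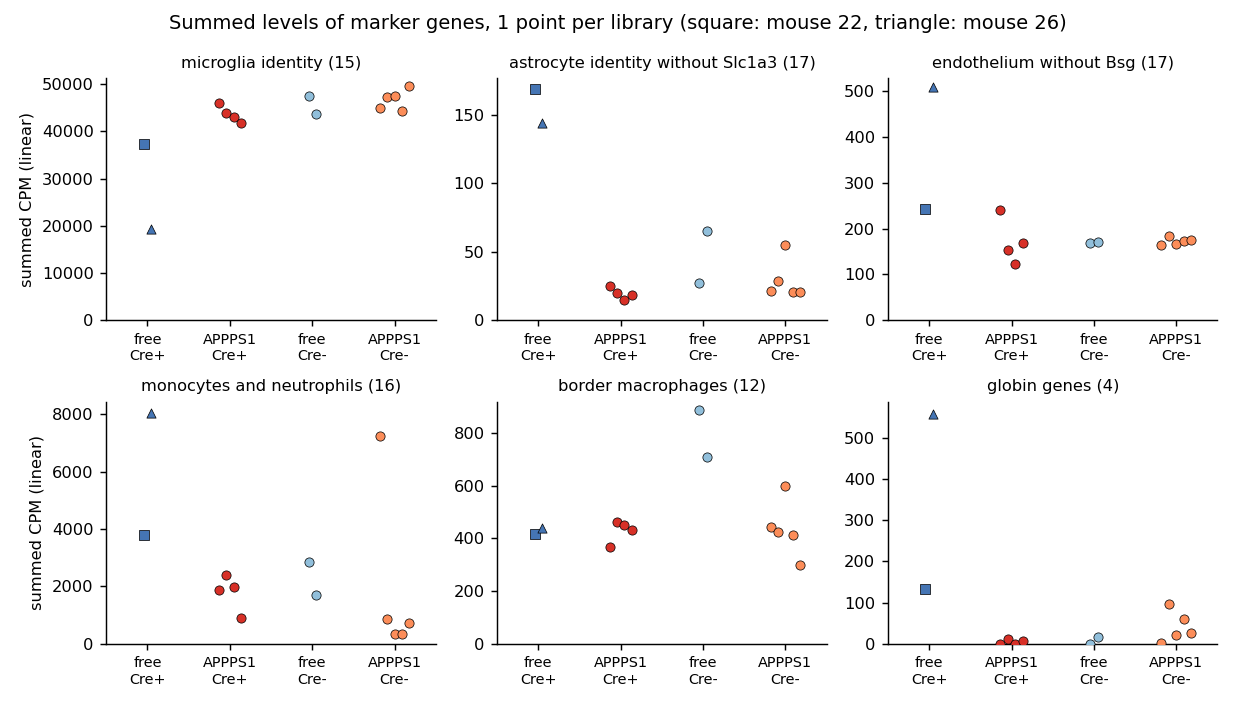
Summed CPM (linear axes from 0) of marker genes in each microglia library of the 4 genotype groups, with mouse 22 as a square and mouse 26 as a triangle. Slc1a3 and Bsg are left out of the astrocyte and endothelial sums. Mouse 26 has the lowest microglia identity sum, 19246 CPM, and the highest monocyte, endothelial and globin sums, and both amyloid-free Cre-positive libraries lie above the other groups for astrocyte genes.

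The transgenes and the APOE genes were measured first, on CPM without TMM scaling and with an exact two-sided permutation test of the difference of means for each gene. With 4 mice against 2 there are 15 arrangements, so p cannot go below 0.0667, and adjusted values cover 7 genes. Human APOE, the product of the knock-in, was at 328, 1008, 1050.2 and 738 CPM in APPPS1 microglia and at 77.5 and 99.8 CPM in amyloid-free microglia. The groups did not overlap and their means stood 8.81-fold apart (exact permutation p = 0.133, adjusted 0.233). Mouse Apoe was at 99.2, 249.5, 358 and 169 CPM against 36.7 and 55.5 CPM with the 4 APPPS1 mice in the same order as for human APOE (exact permutation p = 0.133, adjusted 0.233). The rule by which reads were assigned to the mouse or the human gene was not stated, so counts of Apoe in these knock-in mice need not stand for a mouse transcript. Which cells in the libraries supplied these transcripts was not tested. Human APP, from the transgene, was at 8.63, 0.806, 1.08 and 4.92 CPM against 0.0605 and 0 CPM (exact permutation p = 0.133, adjusted 0.233). Mouse App, the endogenous precursor gene, was at 103, 97.7, 126 and 99.9 CPM against 100.1 and 126 CPM, and the groups overlapped. Aldh1l1, whose promoter drives the Cre, stayed at or under 2.73 CPM in all 6 libraries.

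Across the transcriptome, 1240 of 17593 genes were called. Of these, 643 were higher in APPPS1 microglia, which is 3.65% of the genes tested, and 597 were lower, which is 3.39%. In 824 of them the change was beyond 2-fold, 338 higher and 486 lower. The 4 APPPS1 libraries all lay above both amyloid-free ones for 16.7% of the tested genes and below both for 19.7%, and these shares are the background for the groups that do not overlap. The number of calls depended on single libraries. Without mouse 26 no gene was called by edgeR (lowest adjusted p 0.212), while 2319 had an unadjusted p under 0.05. All 643 higher genes kept their sign without mouse 26. For each of them every APPPS1 library lay above both amyloid-free ones, so the sign could not turn. Of the 597 lower genes, 595 kept their sign. For 568 of the 597 every APPPS1 library lay below both amyloid-free ones, so that sign was likewise fixed in advance. The median change of the higher genes was 1.04 with both amyloid-free mice and 0.92 without mouse 26, and that of the lower genes moved from -1.71 to -0.93. Without mouse 22 there were 1884 calls, without mouse 458 there were 31 and without mouse 475 there were 183. When libraries were scaled on 8 microglia identity genes in place of TMM, an alternative added after seeing the data, the median change of all genes moved from -0.08 to -0.50 and the calls were 199 higher and 2357 lower. Directions below are therefore relative to a median gene under TMM, and list counts are given again under the identity scaling. The 199 higher and 2357 lower of 17593 genes, with the median of -0.50, are the background for those list counts and medians.

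**Figure D2:**
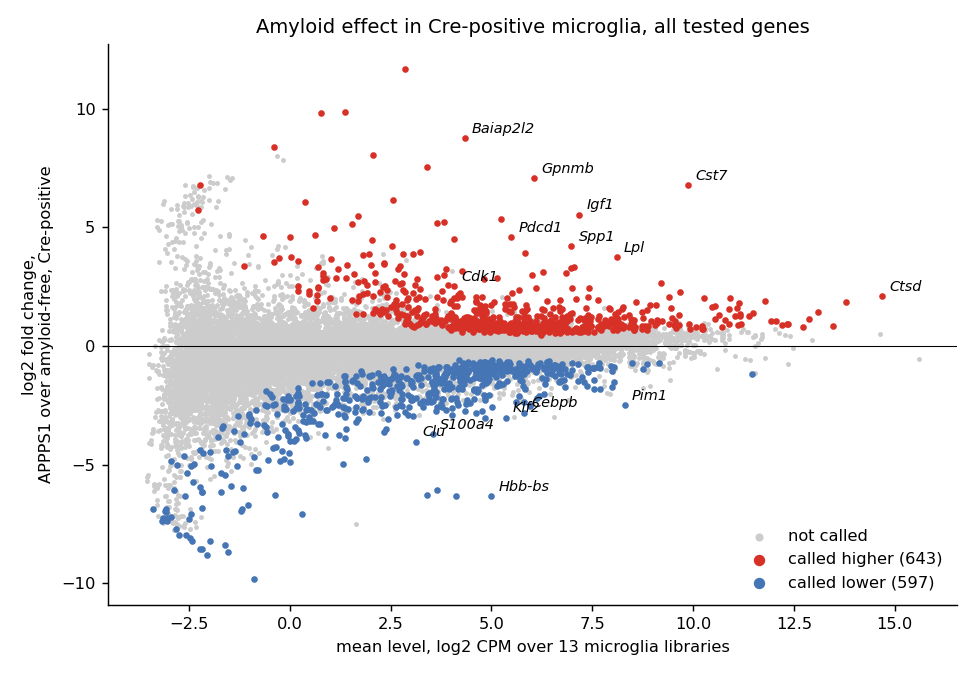
Each point is 1 of 17593 tested genes, with its mean log2 CPM over 13 microglia libraries (x) and its log2 fold change in Cre-positive microglia, APPPS1 over amyloid-free (y). Red marks 643 genes called higher and blue 597 called lower, with Cst7 at 6.77 and Hbb-bs at -6.32 among the named ones.

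Genes of the late disease-associated state were among the largest rises. Of 29 tested members, 18 rose and 1 fell, with a median change of 2.02 against -0.08 over all genes. Without mouse 26 the median was 2.36, and with the identity scaling 17 members were higher and 1 lower. With the astrocyte marker level as a covariate the median was -0.10 and none was called, and in that fit the amyloid groups and the covariate do not overlap in Cre-positive mice. Cst7 (ENSMUSG00000068129, chr2:150570415-150578944 on GRCm38), which encodes cystatin F, an inhibitor of lysosomal cathepsins, was at 1043, 1478, 1303 and 1433 CPM in APPPS1 microglia and at 11.8 and 12.3 CPM in amyloid-free microglia. Both amyloid-free values were close to each other and far below the lowest APPPS1 library, and the change was 6.77 ± 0.85 (adjusted p = 0.00975), a 109-fold ratio of means. Gpnmb (ENSMUSG00000029816, chr6:49036546-49070929), a transmembrane glycoprotein of lysosomes, was at 45.9, 129, 104 and 106 CPM against 0.248 and 1.23 CPM. The change was 7.07 ± 1.28 (adjusted p = 0.0189), and mouse 443 had the lowest level of the APPPS1 group. Igf1, an insulin-like growth factor, stood at 148, 269.9, 211 and 254 CPM against 6.25 and 3.32 CPM, a change of 5.52 ± 0.72 (adjusted p = 0.0103). The phosphoprotein and cytokine Spp1, also called osteopontin, was at 122, 245, 177 and 192 CPM against 5.42 and 14.7 CPM. It rose by 4.20 ± 0.78 (adjusted p = 0.0189), and mouse 26 had more of it than mouse 22.

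Lpl, the lipoprotein lipase that frees fatty acids from lipoproteins, was at 223, 376, 357 and 462 CPM against 17.9 and 35.8 CPM, a change of 3.73 ± 0.59 (adjusted p = 0.0168). Axl, a receptor tyrosine kinase for the bridging protein GAS6, was at 119.9, 161, 189 and 160.1 CPM against 18.4 and 14.1 CPM, a change of 3.28 ± 0.62 (adjusted p = 0.0189). Astrocytes of the same 6 mice contained Axl at a mean of 156 CPM, within the range of the TMM-scaled APPPS1 microglia. Cst7 was at 0.368 CPM in those astrocytes. Csf1, a growth factor for microglia, was at 176, 202, 218 and 304 CPM against 49.3 and 33.7 CPM and rose by 2.44 ± 0.40 (adjusted p = 0.0168). Smaller rises were found for the tetraspanins Cd9 (1.56 ± 0.32) and Cd63 (2.02 ± 0.38), the scavenger receptor Cd68 (1.81 ± 0.33) and the cathepsin Ctsl (1.63 ± 0.32). Dkk2, a secreted modulator of Wnt signalling, had 0 counts in mice 22 and 26 and 9.22, 10.6, 12.2 and 5.93 CPM in the APPPS1 libraries. Set against a limit of 3 counts over both amyloid-free libraries, it was at least 207-fold higher. Baiap2l2, a membrane-bending adaptor protein, had 4 counts in the 2 amyloid-free libraries together and 17.7, 38.7, 30.2 and 25.2 CPM in the others.

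Anchors of the late list were also found among the members that did not pass. Clec7a, the receptor dectin-1 for fungal glucans, was at 256, 311, 356 and 252 CPM against 58.9 and 138 CPM, with a change of 1.58 ± 0.61 (adjusted p = 0.119). Itgax, the integrin Cd11c, was at 79.7, 78.8, 91.5 and 98.1 CPM against 17.4 and 56.6 CPM (change 1.24 ± 0.55, adjusted p = 0.165), and the chemokine Ccl6 at 1021, 1119.7, 1016 and 1241 CPM against 378 and 848 CPM (change 0.84 ± 0.44, adjusted p = 0.24). For all 3, every APPPS1 library was above both amyloid-free libraries, and mouse 26 was well above mouse 22. Without mouse 26 the changes were 2.36, 2.36 and 1.58. These genes are also expressed by monocytes, whose summed markers were highest in mouse 26, and the part of those cells in the result was not tested. Cybb, the catalytic subunit of the phagocyte NADPH oxidase, was the 1 member that fell, at 205, 101, 126 and 226 CPM against 179.6 and 990.0 CPM. Its change of -1.83 ± 0.48 (adjusted p = 0.0384) became -0.09 without mouse 26, so the fall rested on that library. Lilrb4a had no match in the table and is not analysed here.

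**Figure D3:**
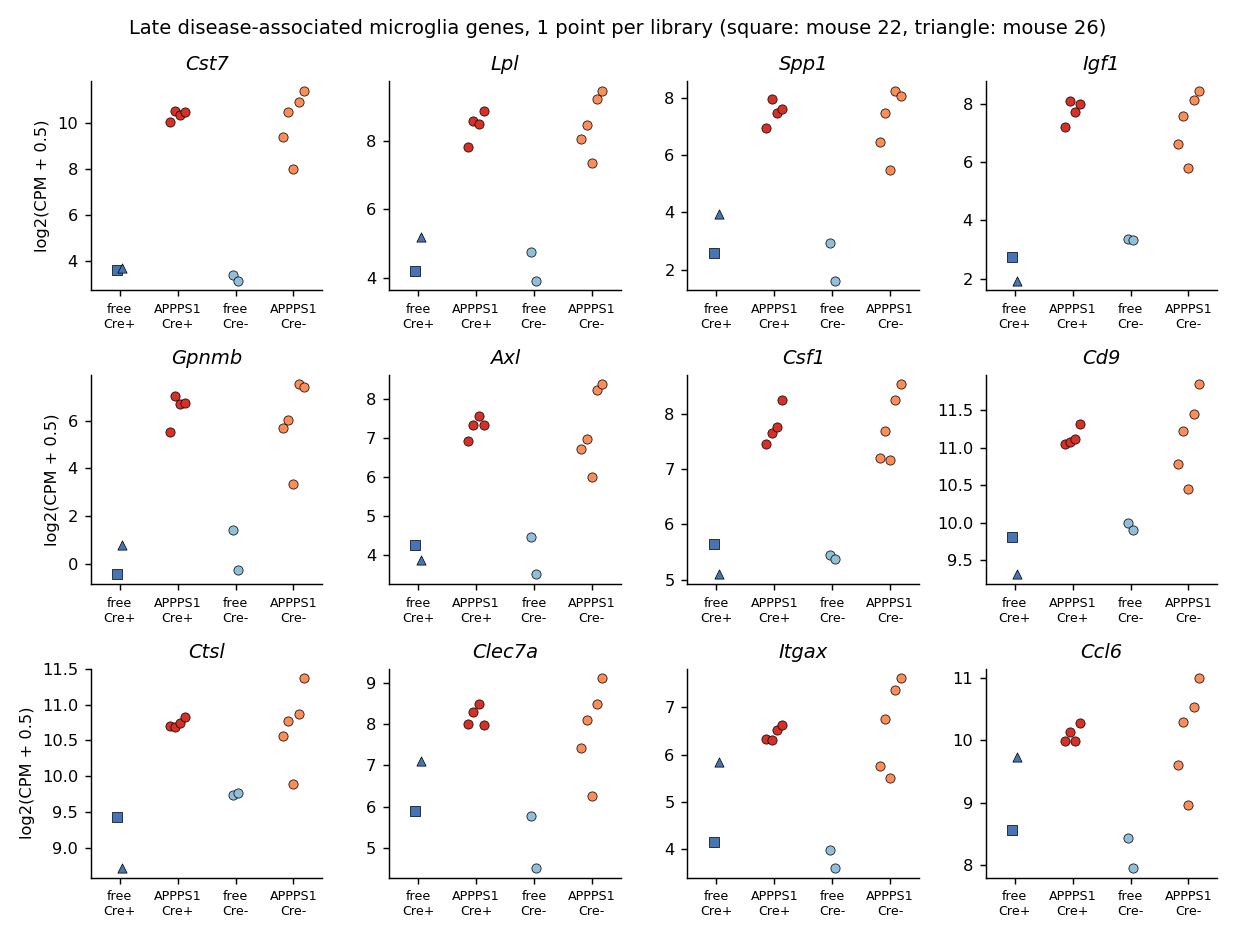
Level of 12 genes of the late disease-associated list in each microglia library, as log2(CPM + 0.5), for amyloid-free (free) and APPPS1 mice with (Cre+) and without (Cre-) the astrocyte Cre. In Cre-positive mice every APPPS1 library lies above mice 22 (square) and 26 (triangle) for all 12 genes, with the narrowest gap for Itgax and Ccl6.

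The early disease-associated genes moved less. Of 10 tested, 6 rose and 0 fell, with a median of 1.10, and 3 were called higher with the identity scaling. Trem2, the receptor for lipids and lipoproteins on which the late state depends, was at 2228, 2611, 2379 and 2663 CPM against 1104 and 537 CPM. It rose by 1.59 ± 0.31 (adjusted p = 0.0189) and by 1.2 without mouse 26. Its signalling partner Tyrobp, also called DAP12, was at 2739, 3279, 3082 and 3989 CPM against 1239 and 1465 CPM, with both amyloid-free mice at a similar level, and rose by 1.28 ± 0.33 (adjusted p = 0.0348). Mouse Apoe, tested here as a mouse gene with the same limit on how reads were divided, rose by 2.42 ± 0.66 (adjusted p = 0.0414). The iron storage subunit Fth1 rose by 0.92 ± 0.25 (adjusted p = 0.0418). B2m, the light chain of MHC class I, was at 5005, 4464, 5153 and 4988 CPM against 2389 and 3512 CPM and did not pass (adjusted p = 0.127). Along the TREM2 pathway, 3 of 18 genes rose and 1 fell, and the identity scaling called 1 higher and 1 lower. The kinase Syk, which binds phosphorylated TYROBP, was the lower one at 85.9, 71.8, 78.7 and 79.9 CPM against 117 and 168 CPM (change -0.85 ± 0.18, adjusted p = 0.0226). The adaptor Lat2 rose by 0.93 ± 0.22 (adjusted p = 0.0278). The downstream enzymes Plcg2 (-0.10 ± 0.16, adjusted p = 0.722) and Inpp5d (-0.07 ± 0.20, adjusted p = 0.844) had overlapping groups.

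Most lysosomal genes rose. Of 30 tested hydrolases and membrane proteins, 21 rose and 0 fell, and all 30 had a positive change. The median was 0.98, 0.84 without mouse 26, and 0.66 with the identity scaling, under which 12 were called higher. With the astrocyte marker level as a covariate it was 0.28 and none was called. In 27 of the 30 the groups did not overlap, against 16.7% of all genes. Because many lysosomal genes carry a short sequence read by the transcription factors TFEB, TFE3 and MITF, promoters were searched for TCACGTG on both strands in windows from 250 bases upstream to 50 bases downstream of RefSeq starts (GRCm38.p6). It was present for 6 of 22 lysosomal genes with a window (27.3%), for 4.29% of all genes with a window, for 6.55% of the genes tested and for 7.75% of the genes called higher. A match is a description of letters and not a binding site. The 200 bases upstream of the starts of Ctsd and Glb1, the members of the list with the largest changes, show it in capitals. In Ctsd the capitals are TCACGTGA, a palindrome that matches on both strands, and in Glb1 the match overlaps a TGACTCA sequence, the AP-1 motif, read on the other strand. The windows are chr7:142387828-142388027 on the minus strand and chr9:114400878-114401077 on the plus strand.
Ctsd: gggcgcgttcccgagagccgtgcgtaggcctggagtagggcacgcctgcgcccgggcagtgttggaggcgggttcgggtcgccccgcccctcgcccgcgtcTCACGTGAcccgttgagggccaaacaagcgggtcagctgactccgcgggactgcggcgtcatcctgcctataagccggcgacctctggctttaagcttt
Glb1: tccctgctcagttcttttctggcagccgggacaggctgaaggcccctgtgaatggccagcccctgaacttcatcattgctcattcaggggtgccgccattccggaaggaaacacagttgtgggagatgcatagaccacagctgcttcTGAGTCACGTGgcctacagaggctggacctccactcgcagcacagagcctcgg

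Ctsd, the aspartic protease cathepsin D, was at 28799.8, 33298, 27171 and 37159 CPM against 9778 and 4918 CPM. The change was 2.10 ± 0.40 (adjusted p = 0.0189) and 1.73 without mouse 26. Glb1, the beta-galactosidase, was at 191, 221, 176 and 251 CPM against 61.8 and 39.1 CPM and rose by 2.05 ± 0.37 (adjusted p = 0.0189). The cysteine protease genes Ctsz at 3853, 4735, 3770.5 and 4665 CPM against 1384 and 939 CPM and Ctsb at 17951, 19508, 15195 and 18707 CPM against 6018 and 3969 CPM rose by 1.87 ± 0.34 and 1.84 ± 0.34. In each of these genes mouse 26 was below mouse 22, and both were below every APPPS1 library. Hexa, the alpha subunit of hexosaminidase, rose by 1.67 ± 0.33, Gusb, the beta-glucuronidase, by 1.72 ± 0.35, and Npc2, which carries cholesterol inside lysosomes, by 1.29 ± 0.29. Grn, the progranulin gene, rose by 1.33 ± 0.30. The abundant membrane protein Lamp1 had overlapping groups, at 252, 277, 451 and 263 CPM against 240.2 and 301 CPM (adjusted p = 0.68).

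Of the proton pump that acidifies lysosomes, the V-ATPase, 3 of 17 subunits rose and 0 fell, with a median of 0.50. With the identity scaling the median was 0.06, 1 subunit was called higher and 9 of 17 had a positive change, and with the astrocyte marker level as a covariate the median was -0.15. Atp6v0d2, a subunit of osteoclasts and activated macrophages, was at 4.65, 4.41, 4.3 and 5.89 CPM in APPPS1 mice, with 0 counts in mouse 22 and 1 count in mouse 26 (adjusted p = 0.0238). The ubiquitous subunits Atp6v1c1 (0.92 ± 0.24) and Atp6v0c (0.89 ± 0.26) rose less. The regulators themselves did not pass: 0 of 12 MiT/TFE and LXR genes was called by edgeR, with Tfeb at 11.9, 15.6, 17.2 and 18.1 CPM against 20.8 and 20.3 CPM (change -0.39 ± 0.19, adjusted p = 0.203) and Mitf at 30.5, 35.4, 39.4 and 24.3 CPM against 27.9 and 22.6 CPM (change 0.36 ± 0.20, adjusted p = 0.26). Without mouse 22, 1 of them was called higher, and the identity scaling called 0 higher and 1 lower.

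Some proliferation genes rose, at low levels. Of 26 cell cycle genes, 10 rose and 0 fell, with a median of 1.61, 1.67 without mouse 26 and 1.2 with the identity scaling. That scaling called 6 higher and 0 lower. With the astrocyte marker level as a covariate the median was -0.36 and none was called. Genes expressed in G2 and mitosis often carry CCAAT boxes, bound by NF-Y, together with the sequence TTTGAA of the cell cycle homology region. On both strands of the same windows, CCAAT was present for 19 of 23 listed genes (82.6%, against 41.1% of all and 42.5% of tested genes). TTTGAA was present for 11 (47.8%, against 20.2% and 14.8%). CCAAT was also present for 15 of 17 cholesterol synthesis genes (88.2%), so it was not particular to the cell cycle list. Ccnb1, a called member of the list, had 2 CCAAT matches and 0 TTTGAA matches in the 200 bases upstream of its start. Both motifs, in either orientation, are capitalised in the 200 bases upstream of Cdk1 and Top2a, 2 other called members. Their positions are chr10:69352913-69353112 and chr11:99024190-99024389, both on the minus strand.
Cdk1: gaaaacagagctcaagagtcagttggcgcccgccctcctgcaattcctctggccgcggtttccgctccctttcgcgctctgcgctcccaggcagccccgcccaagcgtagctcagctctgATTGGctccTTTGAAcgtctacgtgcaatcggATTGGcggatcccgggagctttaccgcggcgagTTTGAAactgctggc
Top2a: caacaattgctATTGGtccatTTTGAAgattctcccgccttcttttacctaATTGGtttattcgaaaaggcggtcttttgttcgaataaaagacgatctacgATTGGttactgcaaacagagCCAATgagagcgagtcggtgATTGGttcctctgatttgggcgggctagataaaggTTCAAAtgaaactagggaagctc

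Cdk1, the kinase that starts mitosis, was at 23.4, 22.2, 21.1 and 35.7 CPM against 3.85 and 5.16 CPM, with mouse 475 the highest, and rose by 2.51 ± 0.51 (adjusted p = 0.0201). Top2a, the topoisomerase that untangles chromosomes, was at 19.1, 20.4, 25 and 41.7 CPM against 6.22 and 6.77 CPM and rose by 2.03 ± 0.49 (adjusted p = 0.0314). The cyclin Ccnb1 rose by 2.80 ± 0.62, the replication helicase subunit Mcm5 by 2.06 ± 0.51 and the ribonucleotide reductase subunit Rrm2 by 2.13 ± 0.54. Mouse 475 had the highest level of each of these genes in the APPPS1 group, and without it Cdk1, Mcm5 and Rrm2 were not called. Mki67, the standard proliferation marker, was at 7.88, 7.32, 11.8 and 19.7 CPM against 5.45 and 9.47 CPM. Its groups overlapped and its change was 0.65 ± 0.47 (adjusted p = 0.403), or 1.14 without mouse 26.

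**Figure D4:**
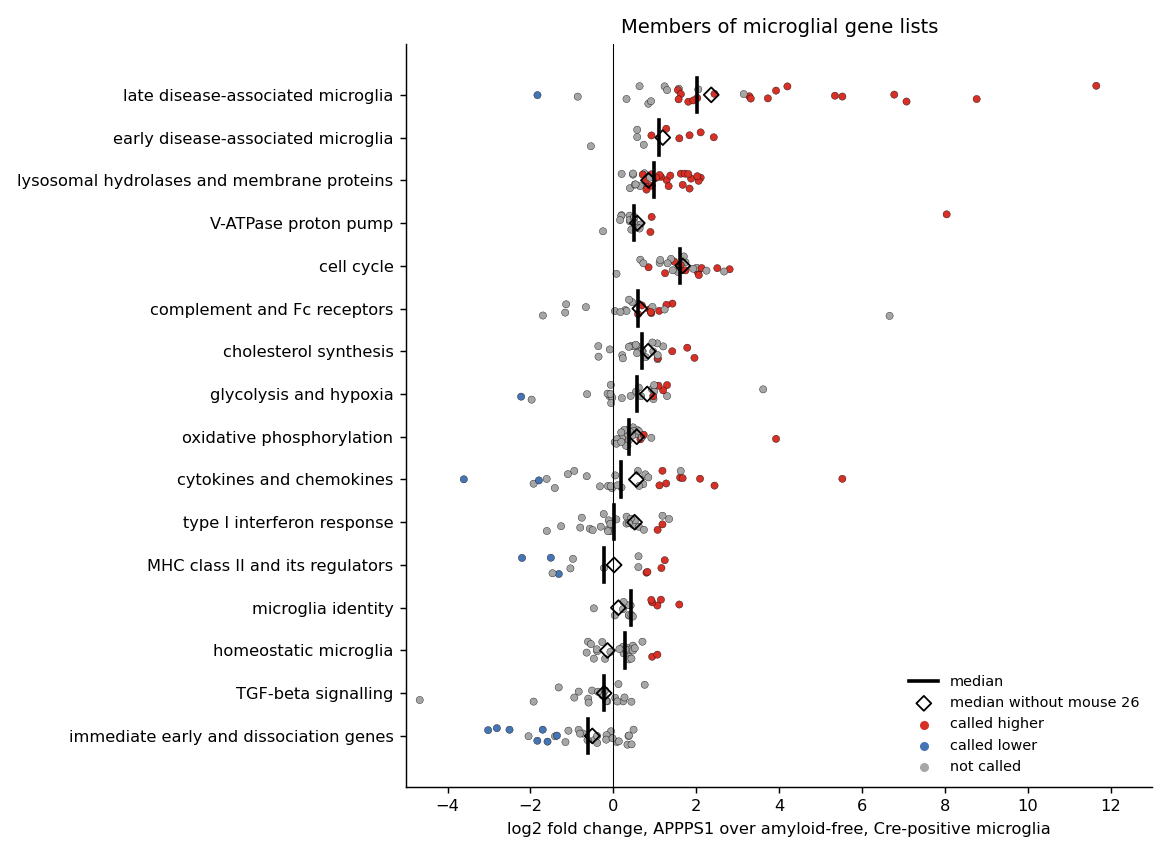
Log2 fold change of every tested member of 16 microglial gene lists in Cre-positive microglia, with the median of a list as a bar and the median without mouse 26 as a diamond. Late disease-associated genes (median 2.02), cell cycle genes (1.61) and lysosomal genes (0.98) lie to the right of 0 and immediate early genes (-0.62) to the left.

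Complement and Fc receptor genes were higher in part. Of 21 tested, 8 rose and 0 fell, with a median of 0.60, and the 3 C1q chains were among those that rose. C1qb was at 9478, 9880.5, 8668 and 11042 CPM against 4734 and 2546 CPM (change 1.42 ± 0.24, adjusted p = 0.0182). The other chains C1qa and C1qc rose by 0.91 ± 0.18 and 1.28 ± 0.23. The anaphylatoxin receptor C3ar1 rose by 1.10 ± 0.27, and the Fc gamma receptors Fcgr2b, Fcgr3 and Fcgr1 by 0.87 ± 0.20, 0.90 ± 0.24 and 0.69 ± 0.19. In Cre-negative microglia the changes of C1qb and Fcgr3 were 0.32 and 0.01. The Cre-negative median of the list was 0.01, with 1 member called higher and 0 lower. Over all tested genes, 0 were called by edgeR for the difference between the Cre states. With the identity scaling 3 members of the list were called higher and 1 lower in Cre-positive mice. Complement C3 was at 24.6, 6.68, 12.1 and 19.5 CPM against 19.8 and 82.5 CPM and did not pass (adjusted p = 0.109).

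Among 29 cytokines and chemokines, 8 rose and 2 fell, and the identity scaling called 5 higher and 5 lower. Beside Igf1 and Csf1, described above, and Cxcl10, given with the interferon genes, the chemokine Ccl3 was at 758, 783, 984 and 1268 CPM against 389 and 233 CPM and rose by 1.61 ± 0.32 (adjusted p = 0.0189). Its relative Ccl4 rose by 1.27 ± 0.31, Cxcl16 by 1.11 ± 0.24 and the neutrophil attractant Cxcl1 by 1.67 ± 0.41. Il12b, the p40 subunit of interleukins 12 and 23, was low, at 5.35, 4.83, 5.47 and 8.45 CPM against 2.09 and 0.718 CPM, and rose by 2.09 ± 0.49 (adjusted p = 0.0278). The anti-inflammatory cytokine Il10 and the interleukin-1 antagonist Il1rn were the 2 that fell, and both rested on mouse 26. Il10 was at 2.29, 0.823, 0.838 and 4.79 CPM against 1.16 and 52.6 CPM, with a change of -3.61 ± 0.98 that turned to 0.96 without that mouse. Il1rn went from -1.80 ± 0.51 to -0.44. The inflammatory genes Il1b (-1.10 ± 0.40, adjusted p = 0.104) and Tnf (0.72 ± 0.40, adjusted p = 0.263) did not pass, and Il1b was at 259, 206, 336 and 305 CPM against 247 and 934 CPM, with mouse 26 the highest. Among 27 Toll-like receptor and inflammasome genes, 3 rose, namely the lipopolysaccharide co-receptor Cd14 (1.08 ± 0.25), Ly86 (1.14 ± 0.23) and Tlr2 (0.82 ± 0.19), and the endosomal receptor Tlr8 fell (-2.20 ± 0.61, and -0.88 without mouse 26). With the identity scaling 0 genes of this list were called higher and 5 lower. The median was then -0.49, close to the -0.50 of all tested genes. The inflammasome sensor Nlrp3 was at 31.2, 21.5, 27.9 and 38 CPM against 45.5 and 35.8 CPM and did not pass (adjusted p = 0.222).

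Of 26 genes of the type I interferon response, 2 rose and 0 fell. The median of 0.01 rested on mouse 26: without it the median was 0.51 and 22 of 26 had a positive change. It was 0.39 in Cre-negative mice and -0.47 with the identity scaling, which called 0 higher and 4 lower. Over all tested genes the median under that scaling was -0.50. Bst2, a protein that tethers virions, was at 46.8, 71.9, 65.5 and 58.9 CPM against 24.9 and 33.2 CPM and rose by 1.07 ± 0.29 (adjusted p = 0.0406), as did the chemokine Cxcl10 (1.18 ± 0.24). Ifit2 and Ifit3, which bind foreign RNA, were above both amyloid-free values in every APPPS1 library but missed the threshold (adjusted p = 0.0636 and 0.063). Isg15 (-0.23 ± 0.38) and Irf7 (-0.13 ± 0.34) had overlapping groups.

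Of 13 MHC class II genes, 4 rose and 3 fell. With the identity scaling the calls were 0 higher and 5 lower and the median -0.70, so the rises depended on the scaling. The lower ones were 2 surface chains and Cd40. H2-Aa was at 202, 118, 124 and 106 CPM against 446 and 336 CPM (change -1.51 ± 0.38, adjusted p = 0.0337) and H2-Eb1 at 114, 79.7, 87.9 and 71.7 CPM against 257 and 182 CPM (change -1.32 ± 0.32, adjusted p = 0.0314). Here both amyloid-free mice lay above all 4 APPPS1 mice, mouse 22 more than mouse 26, and without mouse 26 the changes were -1.66 and -1.50. The invariant chain Cd74 was at 1484, 904, 821 and 929 CPM against 2381 and 1682 CPM and missed the threshold (adjusted p = 0.0700). The endosomal chaperones H2-DMa (0.80 ± 0.21), H2-Oa (1.24 ± 0.28) and H2-Ob (1.16 ± 0.26), which edit peptide loading, and the protease Ctss (0.82 ± 0.19), which degrades the invariant chain, were higher. Cd40, a co-stimulatory receptor, was at 2.42, 1.19, 1.23 and 3.21 CPM against 3.77 and 14.9 CPM, with mouse 26 far above the rest, and its change of -2.20 ± 0.49 was -0.86 without that mouse. Of 16 MHC class I genes, the non-classical H2-M3 (0.96 ± 0.24) and H2-T23 (0.78 ± 0.22) rose and none fell, and the classical H2-K1 (-0.16 ± 0.17, adjusted p = 0.579) had overlapping groups. With the identity scaling the class I calls were 0 higher and 1 lower. Counts of H2 genes are uncertain because the family's members share sequence.

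Inhibitory receptors included 1 of the largest changes. Pdcd1, which encodes the checkpoint receptor PD-1, was at 47.3, 45.5, 31 and 91.5 CPM against 2.73 and 1.74 CPM and rose by 4.58 ± 0.80 (adjusted p = 0.0189). Pdcd1 is best known from T cells. The 15 lymphocyte markers, tested or not, summed to 52.1, 31.9, 36.4 and 67.3 CPM against 62.6 and 284 CPM. Cd3e and Cd8a were at or under 0.481 CPM, and the part of T cells in the result was not tested. Its ligand Cd274 was at 47.6, 37.7, 42 and 60.5 CPM against 30.9 and 135 CPM and did not pass (adjusted p = 0.199). Havcr2, or TIM-3, rose by 0.78 ± 0.21 (adjusted p = 0.0433). Lag3, another inhibitory receptor, was at 431, 395, 353 and 416 CPM against 287 and 163 CPM and missed the threshold (adjusted p = 0.0517). Clec12a was at 20.7, 12.2, 15.2 and 20.9 CPM against 34.3 and 98.7 CPM and fell (change -1.95 ± 0.46, adjusted p = 0.028), with mouse 26 the highest. In all, 2 of 14 rose and 1 fell, and the identity scaling called 1 higher and 3 lower.

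Of 15 microglia identity genes 5 rose, among them Fcrls, Olfml3, C1qa and Trem2, and 0 fell. Their median of 0.42 was 0.12 without mouse 26, which had the lowest summed level, and 1.0 without mouse 22, where 12 were called higher. With the identity scaling the median was 0.10, and 3 were called higher and 0 lower. That scaling takes 8 of these same genes as its reference, which holds their median near 0, so it is no check on this list. Of 24 homeostatic genes, 2 rose, 0 fell, and the median was 0.27, or -0.14 without mouse 26. Without mouse 22 the median was 0.85 and 14 were called higher, and with the identity scaling 1 was called higher and 4 lower. The purinergic receptor P2ry12 was at 8851, 7751, 7944 and 5983 CPM against 8968 and 4044 CPM (change 0.23 ± 0.28, adjusted p = 0.628). The APPPS1 values lay between those of the amyloid-free mice, since mouse 22 was the highest of the 6 and mouse 26 the lowest. Tmem119, a membrane protein of microglia, was at 1039, 1187, 1106 and 1073 CPM against 1138 and 558 CPM and the fractalkine receptor Cx3cr1 at 2692, 2668, 2397 and 2925 CPM against 2526 and 1595 CPM, neither past the threshold (adjusted p = 0.381 and 0.285). Fcrls rose by 1.06 ± 0.27 and Olfml3 by 0.94 ± 0.23, and both were at their lowest in mouse 26. The transcription factor Sall1, which maintains microglial identity, was at 217, 258, 374 and 196 CPM against 442 and 282 CPM (change -0.47 ± 0.30, adjusted p = 0.34). Of 21 TGF-beta pathway genes, 0 were called by edgeR, with 1 higher and 1 lower without mouse 22. With the identity scaling 5 were called lower and 0 higher, with a median of -0.60 against -0.50 over all tested genes. Its receptors Tgfbr1 and Tgfbr2 had changes of -0.27 ± 0.30 and 0.75 ± 0.27 (adjusted p = 0.597 and 0.0951). Of 21 myeloid transcription factors, 1 was called, Cebpb, which fell and is described with the stress genes below. The identity scaling called 0 higher and 8 lower, with a median of -0.62, and without mouse 22 there were 4 higher and 1 lower. The lineage factor Spi1, or PU.1, was at 86.9, 123, 100.3 and 84.8 CPM against 81.7 and 149.6 CPM (adjusted p = 0.576).

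Of 25 genes of lipid uptake, storage and efflux, 5 rose and 1 fell, with a median of 0.17. The median was 0.76 without mouse 26, and the identity scaling called 4 higher and 5 lower. Ch25h, which makes 25-hydroxycholesterol, was at 28.4, 84.2, 62.2 and 61 CPM against 1.24 and 1.68 CPM and rose by 5.34 ± 0.93 (adjusted p = 0.0189). Fabp3, a fatty acid carrier, was at 15.5, 24.3, 19.3 and 25.3 CPM against 0.826 and 1.06 CPM and rose by 4.49 ± 0.89 (adjusted p = 0.0189). Nceh1, which hydrolyses cholesterol esters, rose by 2.37 ± 0.49 (adjusted p = 0.021). The cholesterol exporters Abca1 and Abcg1 did not pass, with changes of -0.46 ± 0.29 and 0.33 ± 0.27 (adjusted p = 0.327 and 0.471). Plin2, which coats lipid droplets, was at 185, 179, 156 and 228 CPM against 103 and 229.7 CPM with overlapping groups (adjusted p = 0.791). Of 24 cholesterol synthesis genes, 4 rose and 0 fell, and the identity scaling called 2 higher and 0 lower. The demethylase Cyp51 was at 44.6, 53.4, 48 and 39.7 CPM against 16.2 and 10.8 CPM (change 1.78 ± 0.45, adjusted p = 0.0344), and Fdps rose by 1.42 ± 0.37.

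Of 24 glycolysis and hypoxia genes, 4 rose and 1 fell, and with the identity scaling none was called higher and 2 lower. Gapdh was at 813, 917, 782 and 1289 CPM against 346 and 429 CPM and rose by 1.29 ± 0.31 (adjusted p = 0.0305), and the enzymes Tpi1, Pfkl and Pgam1 rose by 1.2 ± 0.32, 1.09 ± 0.28 and 0.96 ± 0.26. The lower one, Aldoc, is an aldolase of astrocytes, at 9.6, 7.66, 5.5 and 7.0 CPM against 39.9 and 29.6 CPM in these libraries and at a mean of 10068 CPM in the astrocyte sorts of the same mice. Of 25 respiratory chain genes of nuclear origin, 3 rose and all 25 had a positive change, with a median of 0.38. With the identity scaling the median was -0.03, and 1 was called higher and 0 lower. The muscle-type cytochrome oxidase subunit Cox6a2 stood out, at 49, 93.5, 85.7 and 79.3 CPM against 6.11 and 4.00 CPM (change 3.92 ± 0.72, adjusted p = 0.0189). Of 13 mitochondrially encoded genes, mt-Co2 and mt-Co3 fell (changes -1.09 ± 0.29 and -1.11 ± 0.29), and both were highest in mouse 26. The identity scaling called 0 of the 13 higher and 8 lower.

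Among genes of amyloid processing and clearance, 4 of 20 rose and 1 fell, and the identity scaling called 2 higher and 4 lower. Besides Ctsb, the macrophage elastase Mmp12 rose by 1.79 ± 0.44 and the endothelin-converting enzyme Ece2 by 0.75 ± 0.20. The sorting receptor Sorl1 was at 50.5, 37.1, 52.3 and 35.2 CPM against 61.8 and 175 CPM, and its change of -1.43 ± 0.38 was -0.46 without mouse 26. The insulin-degrading enzyme Ide (0.37 ± 0.19, adjusted p = 0.231) and the secretases Bace1 (-0.10 ± 0.20) and Adam10 (-0.01 ± 0.20) had no change past the threshold. Among the TAM receptors and other phagocytosis genes, 2 of 17 rose, Axl and the phosphatidylserine receptor Timd4 (2.48 ± 0.69), and the lipid transporter Abca7 fell (-1.09 ± 0.28, and -0.30 without mouse 26). The identity scaling called 2 higher and 4 lower in this list. Mertk, another TAM receptor of microglia, was at 415, 358, 426 and 392 CPM against 468 and 318 CPM (change 0.02 ± 0.19, adjusted p = 0.962).

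Other genes with large rises were Trpm1, a cation channel, at 10.8, 10.7, 10.7 and 16.5 CPM with 4 counts in both amyloid-free libraries together, and Dcstamp, a cell fusion protein of osteoclasts and giant cells, at 9.28, 8.17, 4.94 and 17.2 CPM against 1.1 and 0.137 CPM (change 3.95 ± 1.04). Ptchd1, a patched-domain membrane protein, was at 8.31, 10.2, 15.3 and 11.8 CPM against 0.716 and 0.821 CPM (change 3.89 ± 0.57, adjusted p = 0.014). Etl4 rose by 5.23 ± 0.85 and Actr3b, a relative of the actin nucleator subunit ARP3, by 5.17 ± 0.89. Actr3b was also present in the astrocyte sorts at 67.3 CPM.

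Genes with the largest falls included transcripts of blood and of astrocytes, and most were higher in mouse 26 than in mouse 22. Of the 597 lower genes, 519 (86.9%) were higher in mouse 26 than in mouse 22, against 51.6% of all tested genes and 19.6% of the higher ones. The globin gene Hbb-bs was at 0, 4.9, 0 and 2.68 CPM against 57.2 and 254 CPM, and its change was -6.32 ± 1.56 (adjusted p = 0.0324). Hba-a1, Hba-a2 and Hbb-bt were likewise highest in mouse 26 and then in mouse 22, with changes of -6.32, -6.06 and -6.27. These genes are near-identical copies, so their counts are uncertain as single genes. S100a4, a calcium-binding protein of leukocytes, was at 7.26, 1.6, 1.31 and 6.18 CPM against 8.92 and 99.9 CPM (change -3.73 ± 0.85, -1.08 without mouse 26). Itga4, the integrin subunit of circulating leukocytes, was at 22, 8.12, 6.17 and 24.3 CPM against 26.1 and 222 CPM (change -3.03 ± 0.65, -0.74 without mouse 26). Ahnak, a large scaffold protein (-2.83 ± 0.59), the granzyme Gzma (-2.75 ± 0.72) and the lipase inhibitor G0s2 (-2.72 ± 0.57) were likewise highest in mouse 26. Of 16 markers of monocytes and neutrophils, 0 rose and 3 fell. They were the chemokine receptor Ccr2 at 66.1, 33.3, 33.4 and 30.5 CPM against 109.6 and 244 CPM (change -2.11 ± 0.55), the integrin Itgal (-2.37 ± 0.55) and Cd44 (-2.18 ± 0.53). The identity scaling called 0 of these 16 markers higher and 6 lower. With the mean log2 level of the monocyte markers as a covariate, 20 genes of the transcriptome were called, 7 higher and 13 lower. With the globin level as a covariate 21 were called.

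Astrocyte transcripts were lower in APPPS1 microglia, and the size of this difference was similar whichever amyloid-free mouse was left out. Of 18 astrocyte identity genes, 13 fell and 0 rose, with a median of -4.02, -4.12 without mouse 26 and -3.88 without mouse 22. The identity scaling called 0 higher and 15 lower. Clu (ENSMUSG00000022037, chr14:65968483-65981547), the lipid carrier clusterin, was at 3.25, 2.33, 1.2 and 1.18 CPM against 29.6 and 35.3 CPM (change -4.03 ± 0.66, adjusted p = 0.0168) and at a mean of 7882 CPM in the astrocyte sorts. The glutamate transporter Slc1a2 was at 2.55, 3.57, 2.15 and 1.32 CPM against 20.5 and 19.8 CPM (change -3.07 ± 0.50) and the connexin Gja1 at 1.21, 0.297, 0.335 and 0.589 CPM against 19.8 and 13.5 CPM (change -4.78 ± 0.92). The GABA transporter Slc6a11 had 0 counts in all 4 APPPS1 libraries and 1.6 and 3.8 CPM in mice 22 and 26. Set against the astrocyte library of the same mouse, the 18 genes summed to between 0.309% and 0.392% in the APPPS1 microglia libraries, to 0.720% in mouse 22 and to 0.50% in mouse 26. These shares include Slc1a3, which these microglia also contained and which supplied the largest part of the microglia sums. The other 17 summed to 14.5 to 24.6 CPM in the APPPS1 libraries and to 169 and 144 CPM in mice 22 and 26. Gfap, the filament protein of reactive astrocytes, was higher in every APPPS1 library and missed the threshold, at 2.02, 2.86, 2.29 and 1.32 CPM against 0.44 and 0.615 CPM (change 2.00 ± 0.58, adjusted p = 0.0508). With the astrocyte marker level as a covariate no gene was called by edgeR, and 1083 had an unadjusted p under 0.05. In that fit the changes of Cst7 and Ctsd were 3.67 and 0.50, neither called. The astrocyte level and the amyloid groups do not overlap in Cre-positive mice, so they cannot be told apart there. Of 18 endothelial markers 8 fell, among them Pecam1 (-1.56 ± 0.39) and Itm2a (-2.27 ± 0.51), and 1 rose, the widely expressed Bsg (0.85 ± 0.21). With the identity scaling 0 of the 18 were called higher and 12 lower.

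Markers of the remaining cell types were called in few cases. The proteoglycan Cspg4, also called NG2, is a marker of both pericytes and oligodendrocyte precursors. It was at 2.82, 3.11, 3.74 and 9.13 CPM against 0.11 and 0.547 CPM and rose by 3.87 ± 1.02 (adjusted p = 0.0384), while no other marker of either cell type rose. Among 12 pericyte and smooth muscle genes the actin Acta2 fell (change -3.06 ± 0.64), and among 6 precursor genes the phosphatase Ptprz1, which astrocytes share, fell (change -4.01 ± 1.07). Of 14 neuronal genes 1 fell, Stmn2 (change -2.23 ± 0.51), of 13 oligodendrocyte genes 0 were called by edgeR (1 higher and 1 lower without mouse 22), and of 9 ependymal genes 1 fell, Ccdc153, with 3 counts in the APPPS1 libraries together. Of 12 lymphocyte genes 2 fell, the B cell marker Ms4a1 at 0, 0, 0.251 and 0.0536 CPM against 0.661 and 5.13 CPM and Gzma, given above. With the identity scaling 0 genes of the lists in this paragraph were called higher, so Cspg4 was not called. Called lower there were 3 pericyte and smooth muscle, 2 precursor, 5 neuronal, 1 oligodendrocyte, 3 ependymal and 6 lymphocyte genes.

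Immediate early and dissociation genes, which respond within minutes to tissue handling and to other stimuli, were lower in part. Of 29 tested, 7 fell and 0 rose (11 lower with the identity scaling), with a median of -0.62 and of -0.51 without mouse 26. With the astrocyte marker level as a covariate that median was 0.89. The transcription factor Klf2 was at 22, 13.8, 25.4 and 18.6 CPM against 85.7 and 238 CPM (change -3.02 ± 0.51, adjusted p = 0.018, and -2.07 without mouse 26). The factor Cebpb was at 46.2, 22, 31.8 and 14.7 CPM against 68 and 334 CPM (change -2.81 ± 0.48), and the kinase Pim1 at 259.7, 150.1, 128 and 182 CPM against 509.5 and 1533 CPM (change -2.50 ± 0.48). Both were far higher in mouse 26 than in mouse 22. The changes of Klf4, Jund, Cebpd and Fosb, which also fell, were -1.70 ± 0.33, -1.83 ± 0.46, -1.36 ± 0.37 and -1.59 ± 0.44. Outside the list, the stress genes Gadd45a (-2.89 ± 0.50) and Sik1 (-2.73 ± 0.39) fell. The standard markers of the response, Fos (-0.46 ± 0.42, adjusted p = 0.514), Egr1 (-0.39 ± 0.52, adjusted p = 0.669) and Junb (-0.06 ± 0.37, adjusted p = 0.941), had overlapping groups. With the level of the list as a covariate 6 genes of the transcriptome were called, 5 higher and 1 lower. Of 18 glucocorticoid response genes 2 rose, the metallothionein Mt1 (0.84 ± 0.22) and the sulfotransferase Sult1a1 (0.97 ± 0.27). With the identity scaling 0 of these 18 were called higher and 4 lower, with a median of -0.23. Of 26 genes of the unfolded protein and oxidative stress responses 1 rose, Sdf2l1 (1.40 ± 0.33). That is 3.85%, close to the 3.65% of all tested genes called higher. The identity scaling called 1 higher and 1 lower in this list.

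The same contrast in mice without Cre, 5 APPPS1 against 2 amyloid-free, shares no library with the one above and shows which changes recur. There, 55 genes were called in either direction, 0.313% of those tested. Of the 643 genes higher in Cre-positive microglia, 608 (94.6%) had a positive change in Cre-negative microglia, with a median of 0.50. Of the 597 lower genes, 473 (79.2%) had a negative change there, with a median of -0.32, and 64.8% of all tested genes had the same sign in both. For the late disease-associated list the Cre-negative median was 2.90 with 12 calls, for lysosomal genes 0.58 with 0 calls and for cell cycle genes 1.97 with 3 calls. For astrocyte identity genes it was -0.68 with 0 calls, and for immediate early genes -0.37. Cst7 changed by 7.24 in Cre-negative mice, where its levels were 662, 1408, 252, 1932 and 2709 CPM in mice 439, 447, 469, 774 and 779 and 9.99 and 8.36 CPM in mice 465 and 759. The lowest APPPS1 level, in mouse 469, was still far above both amyloid-free mice.

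**Figure D5:**
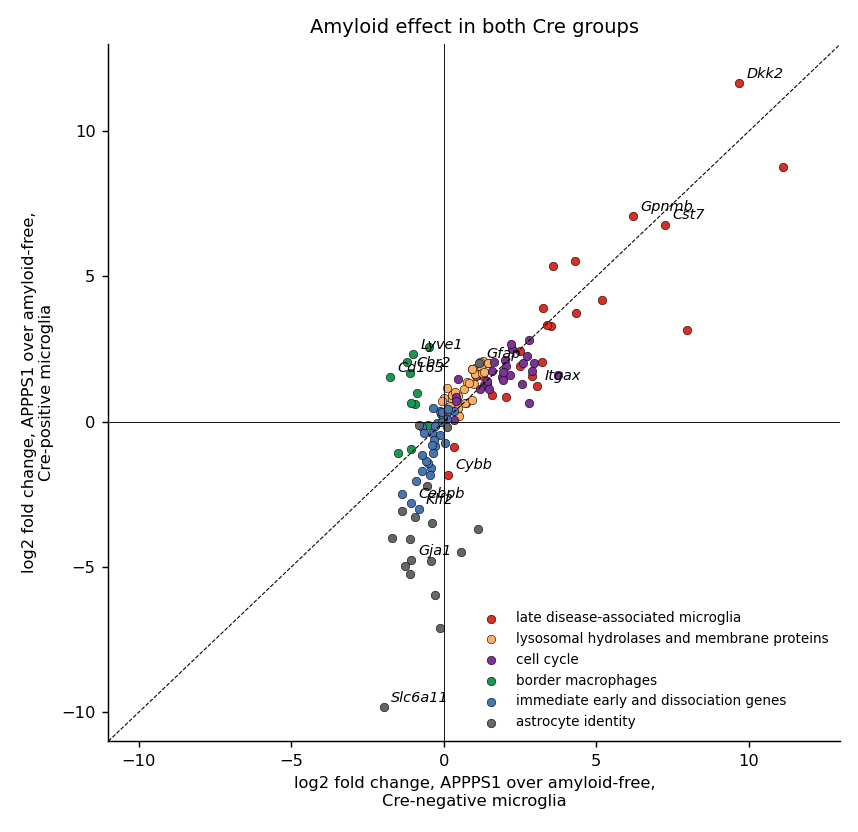
Log2 fold change, APPPS1 over amyloid-free, in Cre-negative (x) and Cre-positive (y) microglia for members of 6 gene lists, with the line of equal change dashed. Cst7 (7.24 and 6.77) lies near the line, astrocyte genes lie low in the Cre-positive comparison, and the border macrophage gene Cbr2 (-1.13 and 1.69) lies in the quadrant of opposite signs.

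The difference between the Cre-positive and Cre-negative amyloid effects was tested as an interaction, and 0 genes were called by edgeR, while 1527 had an unadjusted p under 0.05. DESeq2 called 51 and limma-voom 0. Of the 6 genes with the lowest p at a mean of at least 3 log2 CPM, 3 are markers of border macrophages, the resident macrophages of the meninges and perivascular spaces. Cbr2, a carbonyl reductase, was at 13.8, 22.9, 16.4 and 18.5 CPM in Cre-positive APPPS1 mice and at 7.19 and 3.86 CPM in mice 22 and 26, a change of 1.69 ± 0.31. In Cre-negative mice it was at 16.1, 15.8, 20.5, 14.7 and 10.8 CPM against 34.9 and 33 CPM, a change of -1.13, and the effects differed by 2.82 ± 0.40 (adjusted p = 0.084). The haemoglobin scavenger receptor Cd163 had changes of 1.53 and -1.76 (difference adjusted p = 0.221) and the hyaluronan receptor Lyve1 of 2.33 and -1.0 (adjusted p = 0.221). The summed level of 12 border macrophage markers was 365, 461, 449.5 and 432 CPM in Cre-positive APPPS1 mice, 415 and 439.9 CPM in mice 22 and 26, and 887 and 706 CPM in the Cre-negative amyloid-free mice, which were the highest. Of these 12 genes, 4 rose in Cre-positive microglia, namely Cbr2, Lyve1, Folr2 (2.57 ± 0.51) and Cd209f (2.06 ± 0.56), while the monocyte-shared members F13a1 and Clec4n had changes of -1.08 and -0.96. The identity scaling called 4 of the 12 higher and 1 lower. The remaining genes of lowest interaction p were the plasma peroxidase Gpx3 (1.85 and -0.81), the glucocorticoid-induced chaperone Fkbp5 (0.62 and -1.55) and the calcineurin regulator Rcan1 (0.94 and -1.12), all with an adjusted p for the difference of at least 0.221. For 4 disease-associated genes the difference did not pass: Cst7 -0.47 ± 0.82, Gpnmb 0.86 ± 1.38, Spp1 -0.98 ± 0.88 and Trem2 0.58 ± 0.39, each as Cre-positive minus Cre-negative change. For Cst7 and Gpnmb, 2 standard errors on either side reach past a 2-fold difference in both directions.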

How the data were processed

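Total RNA of FACS-sorted cells was amplified with SMARTer chemistry and sequenced, per the labels' protocols. The authors deposited raw counts per gene. Per the submitters' processing notes bcl2fastq, STAR, featureCounts and the builds GRCm38 and GRCh38 were used, and mouse and human genes share 1 table. Strand and multimapping settings are not given in the sources used here. From 95966 rows, 258 IDs that stood on more than 1 row with the same values were used once. Mouse genes were tested with edgeR 4.0.16 (R 4.3.3, filterByExpr, TMM, glmQLFit) on 13 microglia libraries in 4 groups, and standard errors are the log2 fold change over the root of F. Gene coordinates are from GENCODE M21. DESeq2 1.42.0 and limma 3.58.1 were alternatives. The test was tried on simulated counts. The genes named were the 15 genes of largest change in each direction at a mean log2 CPM of at least 3, anchors and lowest-p members of 39 gene lists, called markers of other cells and the 6 lowest-p interaction genes. Cybb, Fosb, Grn, H2-DMa, Il10 and Il1rn were added after their values were seen. Members and lists were chosen with earlier results of these data known. Mouse 459 was left out, and some genes that the rule would name are not reported here. Fewer than 10 mice per group and the depth limit the precision.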

Additional observations from a re-analysis of the deposited data

Results flagged for a closer look

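Among the levels given for the 4 Cre-positive APPPS1 libraries, 10 values lay farther from their group than Dixon's 95% limit of 0.829 for 4 samples allows. Chance gives such a value in about 1 in 20 groups, and the levels of more than 100 genes were examined.

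Mouse 475 was apart for cell cycle genes, with Cdk1 at 35.7 CPM, Mcm5 at 53.6 CPM and Rrm2 at 42.4 CPM, each above the other 3 APPPS1 libraries, for Trpm1 at 16.5 CPM and for Cspg4 at 9.13 CPM. Without mouse 475 the changes of Cdk1, Mcm5 and Rrm2 were 2.30, 1.64 and 1.87, and that of Trpm1 was 7.37. In that fit, with 183 calls in all, Cdk1, Mcm5 and Rrm2 were no longer called, while Trpm1 was. Mouse 443 was apart for the monocyte chemokine receptor Ccr2 at 66.1 CPM, the invariant chain Cd74 at 1484 CPM and the Fc receptor Fcgr2b at 321 CPM. The ependymal gene Ccdc153 was at 0.0686 CPM in mouse 458 and at 0 in the other 3 APPPS1 libraries. Mouse 460 was apart for the lysosomal membrane gene Lamp1 at 451 CPM. What set these libraries apart was not tested.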

How the results depend on the processing

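The 1240 calls in Cre-positive microglia became 2407 with DESeq2, 519 with edgeR's glmTreat against a 1.2-fold change and 824 past 2-fold. They became 0 with astrocyte markers as a covariate, 0 with endothelial markers, 6 with immediate early genes and 0 with mouse 459 kept as labelled. Alternatives added after seeing the data gave 20 with monocyte markers, 21 with globin genes and 2556 with the identity scaling. Leaving out 1 library gave 0 to 1884 calls. The 55 calls in Cre-negative microglia became 461 with DESeq2, 3 with limma-voom, 265 with no filter, 0 with only the compared groups, 15 with astrocyte markers, 31 with immediate early genes and 0 with mouse 459 kept, and 0 to 277 with 1 library left out (0 without mouse 465, 1 without mouse 759 and 277 without mouse 469). The interaction gave 51 with DESeq2, 28 with no filter, and 0 to 107 with 1 library left out (107 without mouse 22).

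With astrocyte markers as a covariate, these named genes that rose had the opposite sign: Actr3b -0.24, Atp6v0c -0.15, Axl -0.28, Bst2 -0.38, Ccnb1 -0.68, Cd14 -0.23, Cdk1 -0.37, Ch25h -0.10, Cspg4 -1.38, Cxcl1 -0.37, Cyp51 -0.28, Dcstamp -1.16, Fabp3 -1.73, Fdps -0.21, Fth1 -0.18, Gapdh -0.0693, Gpnmb -1.27, Gpx3 -0.61, Gusb -0.025, H2-M3 -0.20, H2-T23 -0.34, Lat2 -0.0338, Nceh1 -0.30, Pfkl -0.41, Rrm2 -0.24, Spp1 -0.29 and Top2a -0.48. These named genes that fell did too: Aldoc 0.50, Cebpd 0.0198, Clu 0.52, Fosb 0.70, Gja1 0.23, Hba-a1 0.22, Hbb-bs 0.23, Hbb-bt 0.99, Jund 1.17, Ptprz1 1.44 and Slc1a2 0.66. The cause was not tested. With mouse 459 kept, the signs turned for Aldoc 5.64, Ccdc153 2.90, Clu 5.05, Gja1 6.0, Ptprz1 4.65, Slc1a2 5.12 and Slc6a11 5.22, all but Ccdc153 expressed by astrocytes, as the added library looked to be. With the globin level as a covariate they turned for Hba-a1 1.58, Hba-a2 0.87, Hbb-bs 0.62 and Hbb-bt 0.68, which are in that covariate. Itm2a, an endothelial gene, was at 0.0045 with endothelial markers, and Il10 lay between -4.49 without mouse 22 and 0.96 without mouse 26. No call of a named gene changed sign under the tests, scalings or filters.

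No paired analysis was possible because each mouse gave 1 microglia library and mouse numbers do not link the groups. Ddx3y as a covariate was not run, since the gene was at or under 0.151 CPM in all 13 libraries. Genes under about 1 CPM rest on few counts per library, and with 2 amyloid-free mice a change that missed the threshold is not shown to be absent.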
